A study of Zea mays with 9 samples.

Results

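A set of 157 maize genes, of 39305 gene identifiers measured, had higher transcript levels in young tassels of the ndl1 mutant than in wildtype and differed little from wildtype in the Bif1;Bif4 mutant. The members were picked from measured values. A gene was taken where its mean normalized count over the ndl1 libraries was at least 50, where the log2 ratio of the mean in ndl1 to the mean in wildtype, each plus 1, was at least 1, where each of the 4 ndl1 libraries exceeded each of the 3 wildtype libraries, and where the same ratio for Bif1;Bif4 lay between -0.5 and 0.5. A further 8 identifiers, named below, were left out of the set by name. The levels of the members in both mutants are therefore a description. Calls of members in either comparison, given below beside the background, rest on values that the rule used and support nothing. A Bif1;Bif4 ratio within these limits does not show that a gene was unchanged there.

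The 9 RNA-seq libraries came from field-grown plants of the B73 inbred background, with tassels of 2 to 4 mm, and comprised 4 libraries from ndl1, 3 from wildtype and 2 from Bif1;Bif4 plants. The ndl1 plants were labelled ndl1/zmftsh10 mutants, with no allele named, and the Bif1;Bif4 plants were labelled heterozygous for both mutations. By the labels, the ndl1 collection contained severely affected tassels in which some axillary meristems still formed. The labels do not say whether libraries came from separate plants, so that spread between libraries may be technical. The tassel is the male inflorescence of maize, and at this stage it is made mostly of meristems and the young axis. In bulk tissue of this kind, fewer cells of a type and less RNA per cell cannot be told apart.

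FtsH proteins of mitochondria are ATP-dependent proteases of the inner membrane that degrade damaged or unassembled membrane proteins, and in several organisms they bind prohibitins, ring-forming scaffold proteins of the same membrane. When mitochondria of plants are disturbed, nuclear genes for alternative oxidase, glutathione transferases and stress transcription factors are commonly induced, a response known best from Arabidopsis and driven there in part by NAC transcription factors. BIF1 and BIF4 are Aux/IAA genes, whose products hold back auxin responses and act in axillary meristem formation.

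Depth was 16863087 to 22533736 reads counted to genes per library. Levels are normalized counts, the reads of a gene divided by the size factor of its library and not corrected for gene length. Those of Bif1;Bif4 come from a table scaled separately from that of ndl1, and each ratio was taken within 1 table. NDL1 itself (GRMZM2G038401) stood at 2939.9, 3381, 3474 and 3039.7 normalized counts in ndl1 replicates 1 to 4 and at 3517, 3277 and 3182 in wildtype replicates 1 to 3, groups that overlapped, so its transcript level does not check the genotype labels. Summed levels of 11 tassel meristem markers ranged from 12619 to 19100 normalized counts in ndl1, from 17498 to 20448 in wildtype and from 18441 to 21454 in Bif1;Bif4, and 13 leaf photosynthesis identifiers summed to 1268 to 2045, 1216 to 1448 and 1459 to 1694. The 7 vascular and secondary wall identifiers, of which both cesa11 identifiers were at 0 in every library, summed to 1014 to 1284, 889 to 1084 and 885 to 1084, and the 8 anther and meiosis identifiers to 5168 to 5722, 4607 to 5026 and 4133 to 4152. Gene by gene, the median log2 fold change in ndl1 (limma) was -0.43 over 11 tassel meristem markers tested. It was -0.37 over 8 leaf, 0.46 over 4 vascular and 0.11 over 5 anther and meiosis identifiers tested. At an adjusted p under 0.05, 0 tassel meristem markers were higher and 2 lower. The counts were 1 and 0 for leaf, 1 and 0 for vascular, and 2 and 1 for anther and meiosis. No member stood on any of these marker lists. Dmc1 and afd1, of the anther and meiosis list, met the value limits of the rule and were left out by name.

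Of the 39305 identifiers, 18897 had a mean of at least 50 normalized counts in ndl1, 880 of these had a log2 ratio of at least 1, and 435 of these had separate ndl1 and wildtype libraries. In Bif1;Bif4, 250 of the 435 had a log2 ratio above 0.5, 22 one below -0.5 and 163 one between the limits. The 8 identifiers left out by name were the alternative oxidase gene Aox, the glutathione transferase genes gst2 and gst42, the enolase gene eno1, the glyceraldehyde-3-phosphate dehydrogenase gene gpc4, the NAC gene NAC12 (GRMZM2G018436), the meiotic recombinase gene Dmc1 and the meiotic cohesin gene afd1. Of these, 6 lay among the 163, while Aox and NAC12 had Bif1;Bif4 log2 ratios of 1.45 and -0.54, both from low counts. In Bif1;Bif4 Aox stood at 11.6 and 1.0 normalized counts against 2.9, 1.0 and 1.1 in wildtype, so its ratio rested on replicate 1. NAC12 stood at 5.4 and 4.2 against 7.7, 7.7 and 6.9. At the limit on the ndl1 ratio, GRMZM2G105415 lay inside at 1.0004 and GRMZM2G460383 outside at 0.9982. At the upper limit in Bif1;Bif4, GRMZM2G084717 lay inside at 0.498 and dof2 (GRMZM2G009406), a Dof-family transcription factor gene, outside at 0.508. At the lower limit GRMZM2G004060 lay inside at -0.48 and GRMZM2G177934 outside at -0.51. On the level, GRMZM2G087769 lay inside at 52.3 normalized counts and GRMZM2G027302 outside at 48.1, and on the separation of the groups GRMZM2G413006 had its lowest ndl1 library 0.02 above its highest wildtype library on the log2 scale, against -0.01 for GRMZM2G049790 outside.

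Most members were moderately higher in ndl1. The log2 ratio had a median of 1.502 and a largest value of 6.42, with 78 members from 1 to under 1.5, 35 from 1.5 to under 2, 24 from 2 to under 3 and 20 at 3 or more. Mean levels in ndl1 ran from 52.3 to 14676 normalized counts with a median of 179.9, and in wildtype from 0 to 6604 with a median of 54.9. In wildtype, 15 members averaged under 10 normalized counts and 4 averaged 1000 or more, so that the set holds genes with hardly any reads in a normal tassel as well as genes with many. The lowest ndl1 library exceeded the highest wildtype library by more than 2 times in 37 members, by more than 1.5 times in 78 and by less than 1.1 times in 19. The reference table of gene names gave 20 members a descriptive name and left 137 with an identifier alone.

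**Figure D1:**
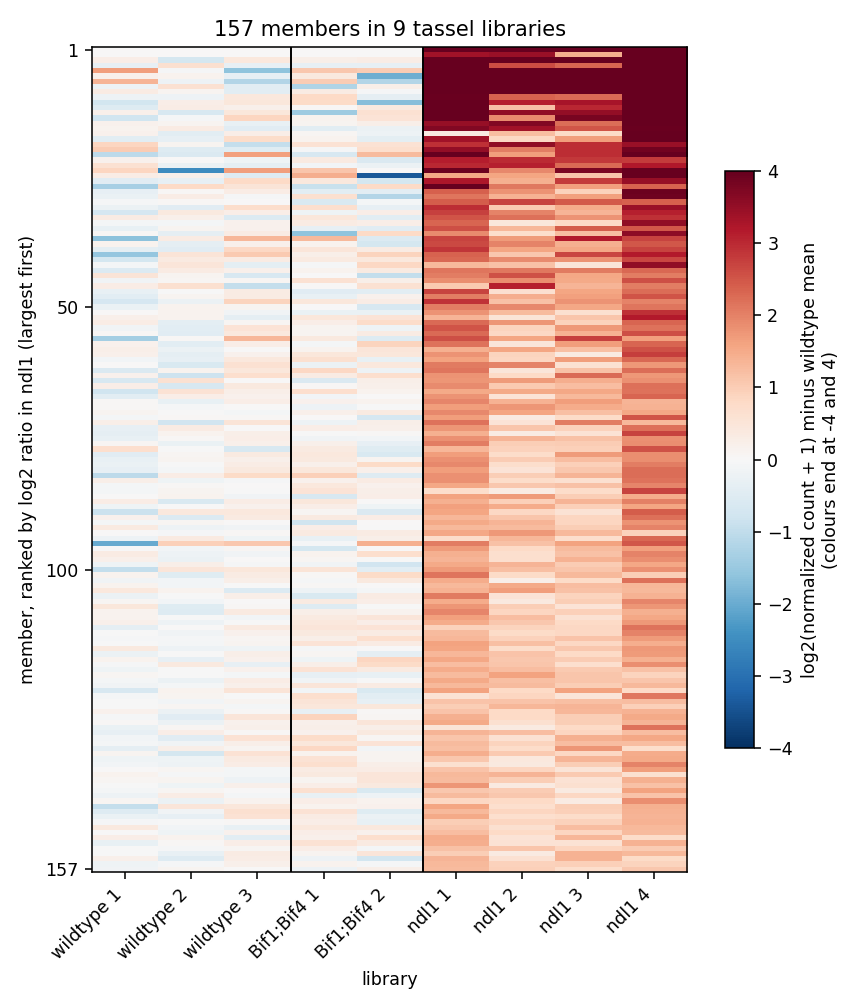
Level of each of the 157 members (rows, ranked by log2 ratio in ndl1) in 9 libraries (columns), as log2(normalized count + 1) minus the wildtype mean of the same deposited table; black lines part wildtype, Bif1;Bif4 and ndl1. The ndl1 columns are above wildtype in every row by the rule, with medians of 1.68 for replicate 1, 1.12 for replicate 2, 1.22 for replicate 3 and 2.04 for replicate 4.

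The 4 ndl1 libraries did not carry the difference equally. Over the members, the median distance from the wildtype mean on the log2 scale was 2.04 in ndl1 replicate 4, 1.68 in replicate 1, 1.22 in replicate 3 and 1.12 in replicate 2. Replicate 4 was the highest library for 91 members and replicate 1 for 45, while replicate 2 was highest for 14 and replicate 3 for 7. The lowest ndl1 library was replicate 2 for 72 members, replicate 3 for 66, replicate 4 for 14 and replicate 1 for 5. Over all genes with a mean of at least 50, the median distances of the same libraries lay between -0.01 and -0.00. The tassel meristem marker sum was lowest (12619) and the leaf photosynthesis sum highest (2045) in ndl1 replicate 4, and their part in the levels of the members was not tested. Sums follow the genes with the highest counts, and the median log2 fold change of the leaf list over the ndl1 libraries was -0.37.

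Spread between ndl1 libraries differed widely among members. The coefficient of variation ran from 2.75% to 183% with a median of 35.4%, and the highest library was 1.06 to 173 times the lowest, with a median of 2.25. In 23 members the ndl1 libraries lay within 1.5 times of each other, in 86 between 1.5 and 3 times and in 48 further apart, 7 of them more than 10 times. For 22 members replicate 4 was more than 2 times the next library, against 1 each for replicates 1 and 2 and 0 for replicate 3. Without its own highest ndl1 library, 122 members still had a log2 ratio of at least 1, and 0 had one under 0.5. Applied without ndl1 replicate 4, the rule found 126 genes, 119 of them among the 157, and without replicate 2 it found 402, all 157 among them.

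**Figure D2:**
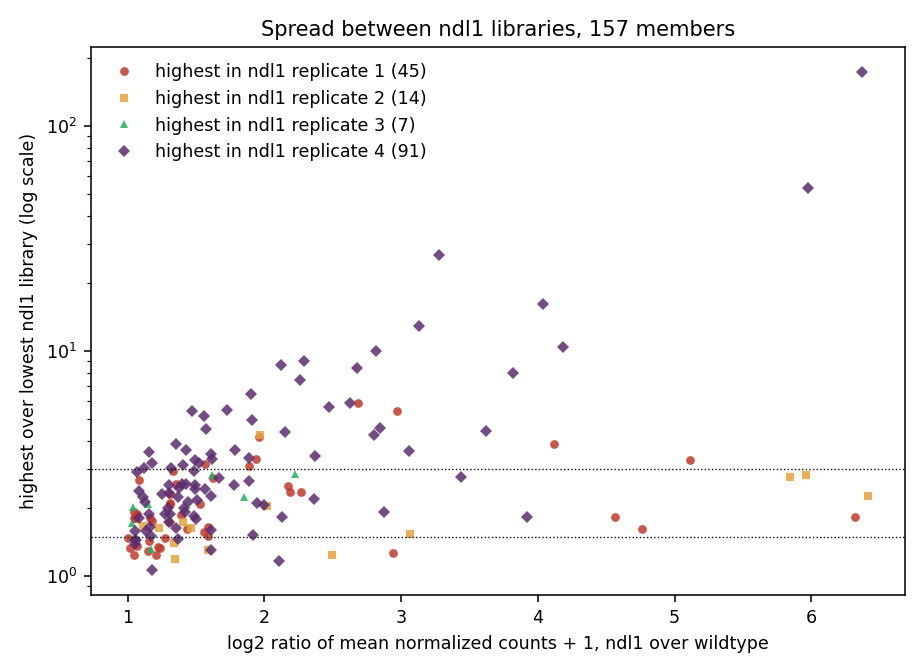
Log2 ratio of mean normalized counts + 1 in ndl1 over wildtype (x axis) against the highest over the lowest ndl1 library (y axis, log scale) for the 157 members, marked by the ndl1 library that was highest; dotted lines stand at 1.5 and 3 times. Members highest in replicate 4 (91) include the widest spreads, up to 173 times.

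Among members with mitochondrial or redox roles, the prohibitin gene phb3 and the nucleoredoxin gene nrx1 were higher in every ndl1 library. phb3 (GRMZM2G410710), a subunit of the inner-membrane prohibitin scaffold, stood at 602, 625, 499 and 375 normalized counts in ndl1 and 265, 237 and 227 in wildtype. Its highest ndl1 libraries were replicates 2 and 1 and its lowest replicate 4, which was still above all wildtype libraries, and the means were 525 ± 114 for ndl1 (SD, n = 4) against 243 ± 19.4 for wildtype (SD, n = 3), a log2 ratio of 1.11. Both Bif1;Bif4 libraries, at 314 and 338, were also above wildtype, with a log2 ratio of 0.43 that lay near the upper limit of the rule. nrx1 (GRMZM2G048324), which encodes a thioredoxin-like oxidoreductase, stood at 832, 525, 353 and 748 normalized counts in ndl1 and 147, 102 and 153 in wildtype. Replicates 1 and 4 were highest, and the lowest ndl1 library was more than 2 times the highest wildtype library, with means of 614 ± 217 for ndl1 (SD, n = 4) against 134 ± 27.8 for wildtype (SD, n = 3) and a log2 ratio of 2.19. In Bif1;Bif4 it stood at 143 and 80.5, a log2 ratio of -0.25.

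The other genes of the mitochondrial stress list, made of alternative oxidase, prohibitin, FtsH, Lon, Clp and chaperonin genes, gave 2 higher and 0 lower of 12 tested in limma, the same counts as in edgeR, in DESeq2 and at an unadjusted p under 0.05, with a median log2 fold change of 0.14 beside -0.00 over all genes tested. The list was made from symbols, without a check that each product is mitochondrial. The genes that rose were Aox and phb2 (GRMZM2G107114), another prohibitin gene, which changed by 0.72 ± 0.10 (log2 fold change ± SE, limma, Benjamini-Hochberg adjusted p = 0.0105), from 2439.7, 2286 and 2242 in wildtype to 3767, 4540.1, 3681 and 3417 in ndl1. In Bif1;Bif4 the log2 ratio of phb2 was -0.22. Without wildtype replicate 2 the limma adjusted p of phb2 in ndl1 was 0.0739. Of 37 tested genes on the list for oxidative stress and detoxification, 4 rose and 0 fell in limma, with a median of 0.22. All 4 encode glutathione transferases, gst2, gst42, gst41 and gst20. The list holds no member, but gst2 and gst42 met the value limits of the rule and were left out by name. The calls of gst2 and gst42 thus rest on values that the rule used. The call of gst20 was lost in 5 of 13 other settings. As lower, 0 of the 37 passed in edgeR or DESeq2 and 0 had an unadjusted limma p under 0.05. In Bif1;Bif4 the log2 ratios of gst41 and gst20 were 0.502 and 1.90, outside the limits of the rule. The Bif1;Bif4 libraries of gst20 were uneven, at 51.8 and 241 normalized counts.

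Transcription factor genes made up 6 of the 20 named members, across the AP2/ERF, WRKY, NAC, heat shock factor and PLATZ families. EREB94 (GRMZM2G363052), of the AP2/ERF family of DNA-binding proteins, stood at 884, 1122, 797 and 687 normalized counts in ndl1 and 395, 368 and 350.3 in wildtype. Like phb3 it was highest in ndl1 replicate 2 and lowest in replicate 4, with no ndl1 library near wildtype, and it had a log2 ratio of 1.23 from means of 873 ± 185 for ndl1 (SD, n = 4) against 371 ± 22.6 for wildtype (SD, n = 3). In Bif1;Bif4 it lay below all wildtype libraries, at 295 and 302. dbf2 (GRMZM5G889719, also listed as dreb1 and EREB1), of the DREB branch of that family, stood at 60.4, 15.7, 20.3 and 141 normalized counts in ndl1 and 10.6, 10.6 and 12.8 in wildtype. Its ratio of 2.29 rested on replicates 4 and 1, while replicates 2 and 3 were close to wildtype. The means were 59.4 ± 58.2 for ndl1 (SD, n = 4) against 11.3 ± 1.24 for wildtype (SD, n = 3), and without replicate 4 the log2 ratio was 1.43.

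WRKY30 (GRMZM2G143204) belongs to the WRKY family, known for roles in defence and stress, and stood at 126, 44.8, 84.7 and 161 normalized counts in ndl1 and 21.3, 6.74 and 6.96 in wildtype. The groups were well apart, with replicate 2 the lowest ndl1 library at more than 2 times the highest wildtype library, and means of 104 ± 50.4 for ndl1 (SD, n = 4) against 11.7 ± 8.32 for wildtype (SD, n = 3) gave a log2 ratio of 3.06. NAC5 (GRMZM2G162739), of the NAC family, stood at 409, 175, 251 and 677 normalized counts in ndl1 and 134, 137 and 172 in wildtype. Replicate 2 all but touched the highest wildtype library, replicate 4 was highest, and the log2 ratio of 1.35 became 0.91 without it. The Bif1;Bif4 libraries of NAC5, at 139 and 192, overlapped those of ndl1.

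HSF6 (GRMZM2G059851) encodes a heat shock transcription factor and stood at 553, 458, 344 and 626 normalized counts in ndl1 and 245, 252 and 201 in wildtype. The lowest ndl1 library, replicate 3, was above all wildtype and both Bif1;Bif4 libraries, and means of 495 ± 122 for ndl1 (SD, n = 4) against 233 ± 28.1 for wildtype (SD, n = 3) gave a log2 ratio of 1.09. PLTZ9 (GRMZM2G094168), a PLATZ gene of a plant family of zinc-dependent DNA-binding proteins, stood at 123, 86.1, 80.2 and 131 normalized counts in ndl1 and 18.4, 52.0 and 51.0 in wildtype. Its ndl1 libraries were fairly even, and its wildtype libraries were uneven with replicate 1 low, giving means of 105 ± 25.7 for ndl1 (SD, n = 4) against 40.5 ± 19.2 for wildtype (SD, n = 3) and a log2 ratio of 1.35.

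Other genes of the same families mostly did not pass the test. Of the AP2/ERF genes other than members, 2 of 26 tested rose and 0 fell in limma, with a median log2 fold change of 0.31, and the 2 were EREB179 and DREB2A, which lost their calls in 5 and 7 of 13 other settings. As lower, edgeR called 2 and DESeq2 3 of the 26, and 4 had an unadjusted limma p under 0.05. In Bif1;Bif4 the log2 ratio of EREB179 was 3.42, outside the limits of the rule, and that of DREB2A was -0.15. Among 18 other NAC genes 4 rose and 1 fell, with a median of 0.50, and those that rose included both identifiers named NAC12, of which GRMZM2G125777 lost its call in 7 of 13 other settings. No other WRKY gene of 15 tested passed in limma, with 1 higher and 1 lower at an unadjusted p under 0.05, 0 in edgeR and 1 higher in DESeq2; the median was -0.04. For 23 other heat shock factor and heat shock protein genes the count was also 0 in limma, with 1 higher at an unadjusted p under 0.05 and 0 in edgeR and DESeq2, and the median was -0.20. Of these 23 fold changes 6 were positive.

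The TIFY family includes the JAZ repressors, which hold back jasmonate responses and whose genes are themselves commonly induced by jasmonate. TIFY4 (GRMZM2G445634) stood at 1077, 619.8, 1071 and 615 normalized counts in ndl1 and 226, 388 and 505 in wildtype. Replicates 1 and 3 formed a higher pair and replicates 2 and 4 a lower pair among the ndl1 libraries, and wildtype itself spread from replicate 1 to replicate 3 by more than 2 times. Means of 846 ± 263 for ndl1 (SD, n = 4) against 373 ± 139.9 for wildtype (SD, n = 3) gave a log2 ratio of 1.18. In Bif1;Bif4 it stood at 327 and 228, below all ndl1 libraries. TIFY20 (GRMZM2G173596, also listed as ZIM10) was a low gene at 64.1, 34.7, 47.6 and 88.9 normalized counts in ndl1 and 2.90, 29.9 and 32.5 in wildtype. The lowest ndl1 library came close to wildtype replicates 2 and 3, and wildtype replicate 1 was far below both. Its Bif1;Bif4 libraries, at 14.3 and 41.8, overlapped those of ndl1. Of 39 other genes on the jasmonate list, 1 rose and 0 fell in limma, with a median log2 fold change of 0.93 beside -0.00 over all genes tested; 33 of the 39 fold changes were positive, 19 had an unadjusted p under 0.05, while edgeR called 0 of them and DESeq2 10. The gene that rose was TIFY2 (GRMZM5G838098, log2 fold change 4.22 ± 0.89 (SE), limma adjusted p = 0.0449), which lost its call in 8 of 13 other settings, with an adjusted p of up to 0.211. In Bif1;Bif4 the log2 ratio of TIFY2 was 1.15. Those of opr8, TIFY9 and TIFY28, next on the list by adjusted p in ndl1, were 0.43, 2.14 and 0.72. Wildtype libraries were uneven for TIFY9 (4.83, 24.1 and 67.3 normalized counts) and TIFY28 (14.5, 26.0 and 122).

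Among members linked to defence and the cell surface, KWL1 (GRMZM2G073114) encodes a kiwellin, a secreted protein that in maize binds an effector of a fungal pathogen. KWL1 stood at 141, 259.6, 185 and 3768 normalized counts in ndl1 and 123, 80.9 and 131 in wildtype. Replicate 4 was far above the other 3 ndl1 libraries, and replicate 1 was only just above the highest wildtype library. The log2 ratio was 3.27 with replicate 4 and 0.80 without it, and the means were 1088 ± 1787 for ndl1 (SD, n = 4) against 112 ± 26.9 for wildtype (SD, n = 3). cc3 (GRMZM2G440968), a cystatin that inhibits cysteine proteases, stood at 137, 54.8, 72.3 and 246 normalized counts in ndl1 and 39.6, 43.4 and 44.1 in wildtype. Replicate 4 was again highest and replicate 2 nearest to wildtype, and the log2 ratio was 1.57, or 1.04 without replicate 4.

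WAK-RLK2 (GRMZM2G144028), named as a wall-associated receptor-like kinase gene, stood at 86.4, 47.0, 72.3 and 302 normalized counts in ndl1 and 37.7, 36.6 and 25.5 in wildtype. Replicate 4 was far above the others, the log2 ratio was 1.90 with it and 1.02 without it, and the Bif1;Bif4 libraries, at 44.6 and 48.1, overlapped the lowest ndl1 library once all libraries were scaled together. CslF6-1 (GRMZM2G110145), of the cellulose synthase-like F6 genes that in cereals make mixed-linkage glucan of the cell wall, stood at 619, 389, 635 and 875 normalized counts in ndl1 and 280.2, 205 and 245 in wildtype. The lowest ndl1 library, replicate 2, was above all wildtype and Bif1;Bif4 libraries, and means of 629.5 ± 199 for ndl1 (SD, n = 4) against 243 ± 37.5 for wildtype (SD, n = 3) gave a log2 ratio of 1.37.

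Members with metabolic or transport roles were ald1, a2 and br2. ald1 (GRMZM2G057823), the gene of a fructose-bisphosphate aldolase of glycolysis, had the largest normalized counts of the set and stood at 15694, 12155, 15404 and 15451 normalized counts in ndl1 and 6215, 5899 and 7699 in wildtype. Replicates 1, 3 and 4 were nearly equal, replicate 2 was lower, and the means were 14676 ± 1686 for ndl1 (SD, n = 4) against 6604 ± 961 for wildtype (SD, n = 3), a log2 ratio of 1.15. In Bif1;Bif4 it stood at 8932 and 9467, above all wildtype libraries, with a log2 ratio of 0.49 at the edge of the rule's limit. The genes eno1 and gpc4, of 2 further glycolytic enzymes, also met the value limits and were left out of the set by name, with log2 ratios in ndl1 of 1.12 and 1.20 and in Bif1;Bif4 of -0.09 and -0.08.

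a2 (GRMZM6G474234), a dioxygenase gene of anthocyanin synthesis, stood at 138, 98.5, 102 and 231 normalized counts in ndl1 and 56.0, 52.0 and 63.8 in wildtype. Replicate 4 was highest and replicates 2 and 3 were close together, all above wildtype, with a log2 ratio of 1.30, or 0.97 without replicate 4. br2 (GRMZM2G315375, brachytic2), an ABC transporter gene of polar auxin transport known for the height of the stalk, stood at 1758, 1439, 1122 and 2519 normalized counts in ndl1 and 800.0, 827 and 746 in wildtype. The wildtype libraries were tight, ndl1 replicate 4 was highest and replicate 3 lowest, and means of 1709 ± 599 for ndl1 (SD, n = 4) against 791 ± 41.2 for wildtype (SD, n = 3) gave a log2 ratio of 1.11. Both Bif1;Bif4 libraries, at 987 and 955, were above wildtype and below ndl1.

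Of the genes known here by name alone, GTPase (GRMZM2G001953) stood at 1038, 706, 872 and 689 normalized counts in ndl1 and 276, 219.7 and 325 in wildtype. All its ndl1 libraries were more than 2 times the highest wildtype library, and its means of 826 ± 164 for ndl1 (SD, n = 4) against 274 ± 52.6 for wildtype (SD, n = 3) gave a log2 ratio of 1.59. DBP2 (GRMZM2G055204) had means of 1691 ± 435 for ndl1 (SD, n = 4) against 756 ± 109 for wildtype (SD, n = 3) and a log2 ratio of 1.16, and SAG (GRMZM2G041175) had means of 265 ± 105 for ndl1 (SD, n = 4) against 82.7 ± 23.6 for wildtype (SD, n = 3) and a log2 ratio of 1.67. For both genes replicate 2 was the lowest ndl1 library.

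**Figure D3:**
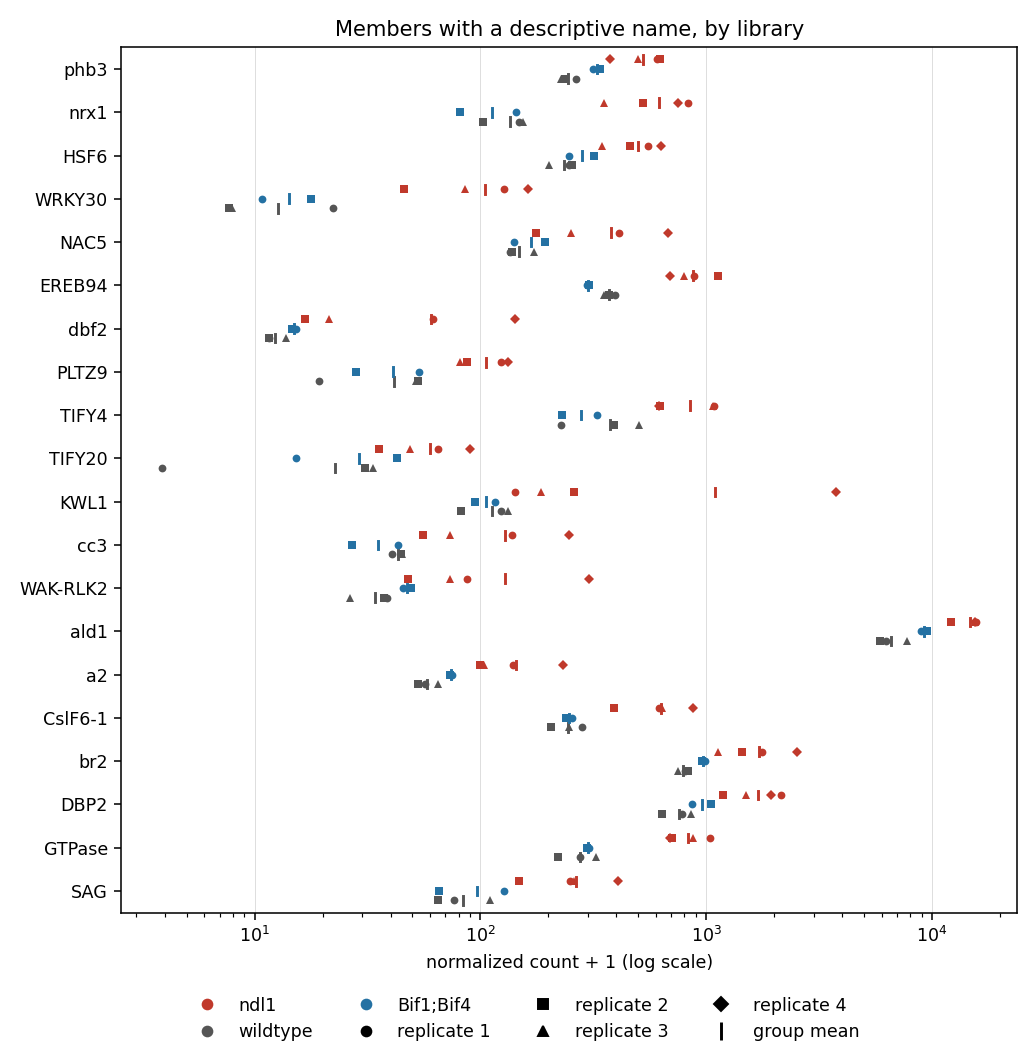
Normalized count + 1 (log scale) of the 20 members with a descriptive name in each library, with wildtype in grey, Bif1;Bif4 in blue, ndl1 in red, symbols for replicates and a bar at each group mean. Replicate 4 of ndl1 stands far to the right for KWL1 (3768), while phb3, EREB94, TIFY4 and GTPase have replicate 4 as their lowest ndl1 library.

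The largest ratios belonged to genes that were nearly silent in wildtype and have no descriptive name. GRMZM5G869635 stood at 95.7, 104, 45.9 and 91.9 normalized counts in ndl1 and 0 in all wildtype libraries, and it had no read in Bif1;Bif4 either. With 341 reads over the ndl1 libraries, 0 over the wildtype libraries and a floor of 3 reads over the group, it was at least 81.0-fold higher in ndl1. GRMZM2G120016 stood at 181, 128, 136 and 98.8 normalized counts in ndl1 and 0.966, 0 and 1.16 in wildtype, which is 563 reads against 2 and 201-fold with a 95% counting interval of 55.3 to 1660. These counting intervals cover counting error only. GRMZM2G427815, with 330 reads against 0 and at least 78.4-fold higher by the same floor, and GRMZM2G087875, with 334 reads against 1 and 238-fold (42.4 to 9427), were of another kind. Both had most of their reads in replicate 4, at 305 and 282 normalized counts, with the other 3 ndl1 libraries between 1.76 and 10.1 and between 5.29 and 34.4. Without replicate 4 their log2 ratios were 3.01 and 3.64, beside 6.37 and 5.97 with it.

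GRMZM2G135960 combined a large ratio with large counts, at 9002, 10047, 5724 and 3628 normalized counts in ndl1 and 139, 132 and 96.3 in wildtype. No ndl1 library came near wildtype, replicates 2 and 1 were highest, and its means of 7099.9 ± 2958 for ndl1 (SD, n = 4) against 122 ± 22.96 for wildtype (SD, n = 3) were 58.0-fold apart, a log2 ratio of 5.85. In Bif1;Bif4 it stood at 157 and 30.3, one library above and the other below all wildtype libraries. GRMZM2G166484 stood at 312, 472, 168 and 177 normalized counts in ndl1 and 8.70, 1.93 and 0 in wildtype, GRMZM2G160611 at 143, 142, 74.1 and 43.5 normalized counts in ndl1 and 4.83, 0.964 and 0 in wildtype, and GRMZM2G111770 at 163, 125, 101 and 114 normalized counts in ndl1 and 2.90, 5.78 and 2.32 in wildtype. Their log2 ratios were 5.96, 5.12 and 4.76, and in each the ndl1 and wildtype libraries were far apart, with replicate 1 or 2 the highest ndl1 library.

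The next members by ratio were GRMZM2G468111, GRMZM2G124229, GRMZM2G169329, GRMZM2G106622, GRMZM5G862355, GRMZM2G131055 and GRMZM2G002656, with log2 ratios from 3.62 to 4.56. GRMZM2G106622 was uneven, at 608, 64.9, 231 and 1047 normalized counts in ndl1 and 19.3, 34.7 and 32.5 in wildtype. Replicates 4 and 1 were high and replicate 2 was the lowest, above all wildtype libraries. Without replicate 4 its log2 ratio was 3.34 (4.03 with it), and that of GRMZM2G124229 was 3.05 (4.19 with it). GRMZM2G468111 was more even, at 360.4, 266, 198 and 215 normalized counts in ndl1 and 12.6, 10.6 and 6.96 in wildtype, with no ndl1 library near wildtype.

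**Figure D4:**
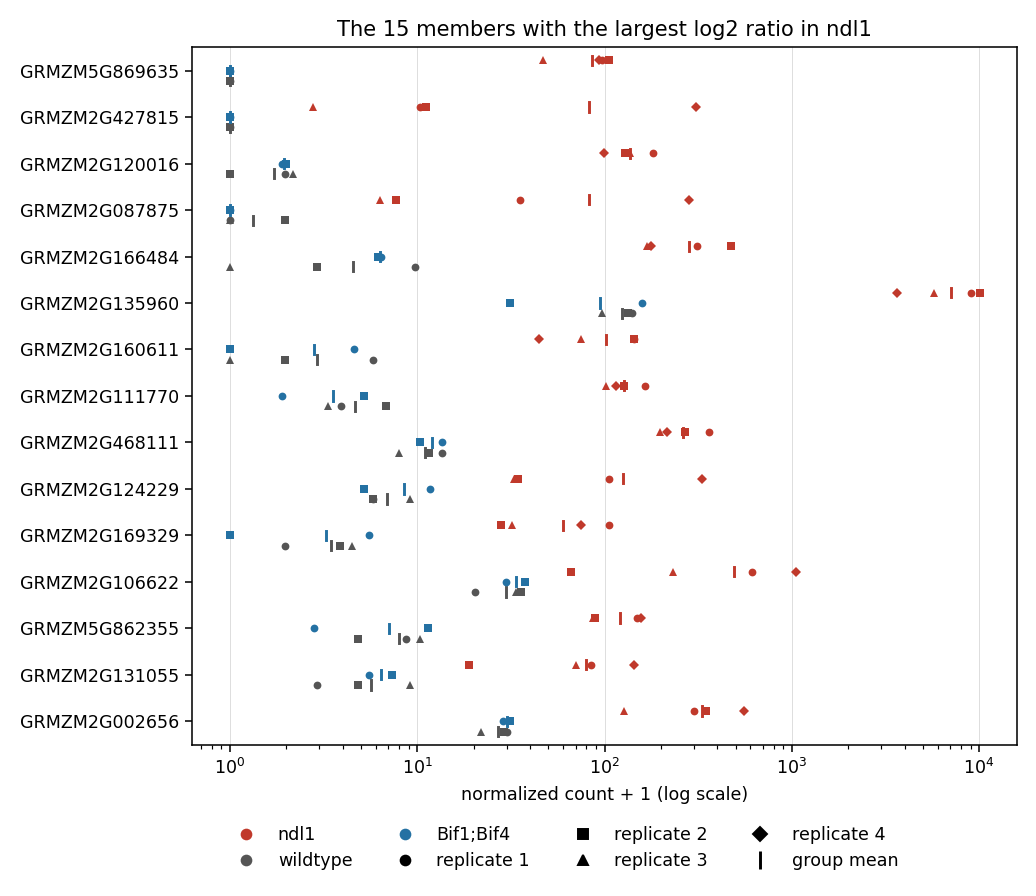
Normalized count + 1 (log scale) in each library for the 15 members with the largest log2 ratio in ndl1, with wildtype in grey, Bif1;Bif4 in blue and ndl1 in red and a bar at each group mean. GRMZM2G135960 lies highest (3628 to 10047 in ndl1), and GRMZM2G427815 and GRMZM2G087875 have replicate 4 far from the other ndl1 libraries.

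Some members were even across the ndl1 libraries. GRMZM2G036427 stood at 341, 342, 352 and 362 normalized counts in ndl1 and 153, 143 and 167 in wildtype, the smallest coefficient of variation in ndl1 (2.75%) among the 157, with a log2 ratio of 1.17. GRMZM2G124417 stood at 346, 419.5, 354 and 339 normalized counts in ndl1 and 61.8, 65.5 and 63.8 in wildtype, a log2 ratio of 2.50 with both groups narrow. AC235544.1_FG006, GRMZM2G139903 and GRMZM2G029385 were likewise narrow in ndl1. AC235544.1_FG006 had means of 87.5 ± 5.93 for ndl1 (SD, n = 4) against 19.6 ± 6.15 for wildtype (SD, n = 3) and a log2 ratio of 2.11. For GRMZM2G139903 the means were 1300.3 ± 102 for ndl1 (SD, n = 4) against 510.3 ± 44.4 for wildtype (SD, n = 3) and the ratio 1.35. For GRMZM2G029385 they were 191 ± 20.8 for ndl1 (SD, n = 4) against 24.0 ± 3.09 for wildtype (SD, n = 3), with a ratio of 2.94. In these members no single library set the ratio.

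Among the 10 members with the highest mean normalized counts in ndl1, those without a descriptive name other than GRMZM2G135960 were GRMZM2G028521, GRMZM2G015219, GRMZM2G145972, GRMZM2G176998, GRMZM2G089698 and GRMZM2G079348. GRMZM2G015219 stood at 4085, 4097, 3254 and 6737 normalized counts in ndl1 and 1022, 1201 and 1190.2 in wildtype, with a log2 ratio of 2.00. Its lowest ndl1 library was more than 2 times its highest wildtype library, and its Bif1;Bif4 libraries, at 1735 and 1326, were above wildtype too. GRMZM2G145972 was uneven in ndl1, at 5541, 1805, 3208 and 4431 normalized counts in ndl1 and 887, 728 and 1422 in wildtype, with replicates 1 and 4 high and replicate 2 near wildtype replicate 3. GRMZM2G079348 stood at 1110.0, 982, 1331 and 3496 normalized counts in ndl1 and 642, 803 and 880.5 in wildtype, where replicate 4 was far above the rest and its log2 ratio of 1.16 was 0.56 without that library.

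A minority of 14 members ran against the common order of the libraries, with replicate 4 as the lowest ndl1 library. They were singled out after their values were seen. They comprised phb3, EREB94, TIFY4, GTPase, GRMZM2G120016, GRMZM2G135960, GRMZM2G160611, GRMZM2G029385, GRMZM2G124417, GRMZM2G052701, GRMZM2G072091, GRMZM2G040102, GRMZM2G086163 and GRMZM2G102069. In 6 of them replicate 1 was highest, in 6 replicate 2 and in 2 replicate 3. The alternative oxidase gene Aox, left out of the set by name, had the same library at the bottom, at 974, 675, 555 and 437 in ndl1 and 2.90, 0.964 and 1.16 in wildtype. The full order of its libraries was shared by 2 members, GRMZM2G160611 and GRMZM2G029385. By contrast NAC12 (GRMZM2G018436), also left out by name, was highest in replicate 4, at 116, 76.1, 69.7 and 251 in ndl1 against 7.73, 7.71 and 6.96 in wildtype.

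In Bif1;Bif4 the members lay on both sides of wildtype within the limits that the rule set. The log2 ratio had a median of 0.15, with 100 members above 0 and 55 below. Both Bif1;Bif4 libraries lay above all wildtype libraries in 27 members and below all of them in 6, while in 52 both lay within the wildtype range and in 19 one lay above it and the other below. Of the 145 members that passed the filter on low counts in that table, 33 had groups that did not overlap (22.8%), where the same held for 42.1% of all genes tested, a share that the rule lowers by its limit on the ratio. The median distances of the members from the wildtype mean in the Bif1;Bif4 table were 0.20 and 0.15 for the 2 mutant libraries and 0.17 for wildtype replicate 3. With the 9 libraries scaled together, all 4 ndl1 libraries lay above both Bif1;Bif4 libraries in 133 members. In the other 24, among them NAC5, TIFY20 and WAK-RLK2, they overlapped. The limits of the rule favour this separation, and its share over all genes was not taken, so the count is a description.

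Because the comparisons share the 3 wildtype libraries and the rule used both, the calls of the members are given beside the background and support nothing. In ndl1, 83 of 155 members tested passed as higher (limma, Benjamini-Hochberg adjusted p under 0.05), against 1.94% of all 22416 genes tested. As lower, 0 members passed in limma, against 1.22% of all genes. The count was also 0 at an unadjusted limma p under 0.05, in edgeR and in DESeq2. With edgeR's quasi-likelihood test 79 passed as higher (1.78% of all genes) and with DESeq2 145 of 153 (6.07%). Of 151 members with an adjusted p in the authors' deposited table, 140 passed as higher (5.23%). The limma count of members depended on single libraries, with 33 when wildtype replicate 2 was left out, 49 and 54 when wildtype replicate 1 or 3 was, 44 when ndl1 replicate 1 was and 118 when ndl1 replicate 2 was. GRMZM2G427815 and GRMZM2G087875 were not tested because the filter on low counts removed them.

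In Bif1;Bif4, 0 of 145 members passed in limma and 0 in edgeR at an adjusted p under 0.05, while 4.28% and 4.22% of all genes passed. At an unadjusted limma p under 0.05, 15 members were higher and 1 lower. The share over all genes at that threshold was not taken, so these counts are a description and show no lean of the members. DESeq2 called 3 members higher, against 9.41% of all genes called in either direction. Of 147 members with an adjusted p in the authors' deposited table for Bif1;Bif4, 3 passed (8.78% of all genes). They were GRMZM2G015219, ald1 and GRMZM2G160279, with log2 fold changes in the authors' deposited table of 0.40, 0.46 and 0.43 and adjusted p of 0.0482, 0.00371 and 0.0324.

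Of the 157 members, 8 stood on any of 17 gene lists made from symbols, and they fell on 6 lists. Because 137 members have no descriptive name, the 8 are not read against the share over all genes. Over all lists, 23 of 334 other genes tested rose in ndl1 and 7 fell, a count of 30 that became 9 when wildtype replicate 2 was left out and 60 when ndl1 replicate 2 was. The lists of oxygen shortage and fermentation, abscisic acid and drought, auxin, cytochrome P450, glycosyltransferase, sugar, secondary wall, bZIP, MYB and homeobox genes held no member. On the oxygen shortage list 2 of 9 genes rose, with a median log2 fold change of 0.52, and these were the hemoglobin gene GLB1 and the alcohol dehydrogenase gene adh1. The call of adh1 was lost in 6 of 13 other settings. In Bif1;Bif4 their log2 ratios were 2.69 and 0.68, outside the limits of the rule. On the auxin list 5 of 38 rose and 0 fell in limma, with a median of 0.04. Among those that rose were PIN10a, GH3, AUX3 and ARF9. The calls of PIN10a and GH3 were lost in 1 of 13 other settings each, and those of AUX3 and ARF9 in 6 each. In Bif1;Bif4 the log2 ratios of PIN10a, GH3 and AUX3 were 3.76, 1.57 and 0.64, outside the limits of the rule, and that of ARF9 was 0.45. As lower, edgeR called 0 and DESeq2 3 of the 38, and 8 had an unadjusted limma p under 0.05. On the homeobox list 0 of 21 rose and 4 fell in limma, with a median of -0.08, and each of the 4 lost its call in 5 to 7 of 13 other settings. As higher, 2 of the 21 had an unadjusted limma p under 0.05 and 0 passed in edgeR or DESeq2. On the abscisic acid list 1 of 20 rose in limma, with a median of -0.08, and the gene was the kinase gene SnRK2.11; 3 were lower in DESeq2. Secondary wall genes gave 1 higher and 1 lower of 19 in limma (median 0.53). The higher one, ccr2, lost its call in 10 of 13 other settings and 0 were higher in edgeR, and the lower one, cad1, lost its call in 3. MYB genes gave 1 higher of 19 (median 0.21), MYB139, which lost its call in 6 of 13 other settings, and 2 were lower in DESeq2. Cytochrome P450 genes gave 1 lower of 8 (median -0.37), CYP78A53, which lost its call in 5 of 13.

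For 27 bZIP genes limma made no call, with 4 lower at an unadjusted p under 0.05, none in edgeR or DESeq2 and a median of -0.05. The 3 sugar genes gave none, with 2 higher and 1 lower at an unadjusted p under 0.05, 1 higher in DESeq2 and a median of 1.23, and the 2 glycosyltransferase genes gave none by any tool or at an unadjusted p under 0.05, with a median of 0.17.

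Of the 106 members that could be placed among protein-coding RefSeq genes, a single pair, GRMZM2G468111 and GRMZM2G099166, lay within 5 gene places of each other, and 0 lay within 50 places of NDL1. The identifiers GRMZM2G159200 and GRMZM2G323828 match the same RefSeq gene and are both members, with log2 ratios of 1.15 and 1.13. GRMZM2G087769 shares its RefSeq gene with GRMZM2G087675, whose log2 ratio was 0.03 against 2.37 for the member. For GRMZM2G005052 and GRMZM2G023791 the partner identifiers stood at 0.92 and -0.07. Values of members with near-identical copies, or with overlapping or antisense genes, are uncertain, since the strand setting of the counting is not given in the sources used here.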

How the data were processed

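RNA-seq of maize tassels was deposited as 1 table per mutant against wildtype. Per the submitters' processing notes, the tools were Trimmomatic, TopHat2 2.1.1, HTSeq and DESeq2; a genome build and the strand setting were not given in the sources used here. The signal values, normalized counts per library, were deposited by the authors as counts divided by size factors, as the headers and values show. Likewise the log2 fold changes, p-values and the statistic, a score, were deposited by the authors from DESeq2, per the file headers. Of these only the authors' log2 fold changes and adjusted p-values were printed. Reads could be recovered, since 100% of each library's values came to whole reads (tolerance 0.1 reads).

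Members were found by the stated rule. The members, gene lists and marker lists were chosen with earlier results of these data known. limma 3.58.1 under R 4.3.3 was fitted to log2(normalized count + 1) of each table, with its intensity trend, after edgeR's filterByExpr at a minimum count of 10, with Benjamini-Hochberg adjustment over all genes tested and a threshold of 0.05. The added 1 understates changes of genes with low counts. edgeR 4.0.16 and DESeq2 1.42.0 were run on the recovered reads. The procedure was tested on simulated data. Counting intervals at 95% are exact Clopper-Pearson intervals on the split of reads between groups, with a floor of 3 reads over a group with none, and cover counting error only. A p-value here reflects spread between libraries alone, which may be technical. Same-numbered libraries had no stated link, and the main fit did not pair them.

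Gene names were taken from RefSeq's table for assembly Zm-B73-REFERENCE-NAM-5.0, used for names and gene neighbours alone: 106 members matched 1 gene, 1 several and 50 none. Named members were the 15 largest ratios, the 10 highest mean counts in ndl1, all 20 with a descriptive name and those nearest each limit, with up to 4 other genes per list by adjusted p, NDL1 and the 8 genes left out by name; the text gives part of these. Promoter and protein sequences were not analysed here. Other settings were other scaling, pseudocount, filter, tests, a replicate block, other limits of the rule, and each library left out.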

Additional observations from a re-analysis of the deposited data

Results flagged for a closer look

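In 6 of the 41 members chosen for naming, 1 ndl1 library stood apart from the other 3 by Dixon's ratio of gap to range, a criterion that chance meets in about 1 in 20 groups. The members were chosen on their ndl1 level and ratio, which 1 high library raises, so their count is not read against that share. In 5 of the 6 the library was ndl1 replicate 4. GRMZM2G427815 stood at 305 normalized counts in replicate 4 and at 1.76 to 10.1 in the others, and GRMZM2G087875 at 282 against 5.29 to 34.4. KWL1 (GRMZM2G073114) stood at 3768 against 141 to 259.6, WAK-RLK2 (GRMZM2G144028) at 302 against 47.0 to 86.4, and GRMZM2G079348 at 3496 against 982 to 1331. For ald1 (GRMZM2G057823) the library was ndl1 replicate 2, at 12155 normalized counts, below 15404 to 15694 in the other 3.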

How the results depend on the processing

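The number of genes that meet the member rule was 157 and stayed within 1.5 times of that with a pseudocount of 5 (166 genes), a level of 100 (115) or 20 (208), a ratio of at least 0.8 (224) or 9 libraries scaled together (153). It was 79 with a log2 ratio of at least 1.5 and 92 with a window of -0.3 to 0.3, and from 126 to 402 when 1 library was left out, the highest without ndl1 replicate 2. With 1 library left out, limma called 111 to 1467 genes in ndl1 (708 with all libraries), 33 to 118 members there (83), 9 to 60 genes of the lists (30), 1 to 1299 genes in Bif1;Bif4 (957) and 0 to 2 members there (0). DESeq2 called 2210 genes, 145 members and 69 list genes in ndl1, and 2105 genes and 3 members in Bif1;Bif4. Whether numbers in the labels pair the libraries could not be decided. Deviations of same-numbered libraries correlated at -0.20, 0.26 and -0.06 between ndl1 and wildtype and at -0.27 and -0.16 between Bif1;Bif4 and wildtype. Differently numbered ndl1 and wildtype libraries ranged from -0.61 to 0.45. Deviations from the means of such small groups tie these correlations to each other, so they cannot exclude pairing. With the number as a replicate block, which leaves ndl1 replicate 4 without a partner, 365 genes, 58 members and 17 list genes were called in ndl1 and 431 genes and 0 members in Bif1;Bif4. Where a setting left a group with 1 library, that library was assumed to vary like the others. For single genes, 162 of the values under other settings lost the call of the same gene, 57 gained one, and the direction turned in 2, both for bz1 (GRMZM2G165390, log2 fold change -0.19), at 0.012 with the replicate block and at -0.36 to 0.012 with 1 library left out. The cause of these shifts was not tested.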
